A study of Mus musculus with 12 samples.

Results

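The receptors of the ERBB family and the ligands of the epidermal growth factor (EGF) family were followed through 12 MADM tumors as 10 genes of the 47593 in the deposited table. The 4 receptors were Egfr, Erbb2, Erbb3 and Erbb4, and the 6 ligands were Areg, Ereg, Hbegf, Tgfa, Btc and Nrg1. They were chosen by symbol, each symbol matched 1 Ensembl gene, and no threshold on a value entered the choice. Levels were given as TPM, the share of a tumor's transcripts that a gene takes after its reads are divided by its length and all genes are scaled to one fixed total, so that levels of different genes of a tumor can be compared.

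Mosaic analysis with double markers (MADM) uses Cre recombinase to exchange the arms of paired chromosomes in dividing cells, which leaves rare GFP-marked cells without either functional copy of a gene in an animal that is otherwise heterozygous. All tumors came from untreated female MADM-mutant mice of mixed background with the RG;GR alleles. As the methods of the study give it, these mice carried Brca1 flox and p53 KO alleles on the MADM-TG chromosome 11 and the MMTV-Cre transgene, which is active in mammary epithelium. Tumors 3 and 4 came from one mouse, tumors 10, 11 and 12 from another, and the other 7 tumors from 7 mice (9 mice in all). The mouse was taken as the replicate, and tumors of the same mouse were averaged before any error or test. RNA was taken from pieces of whole tumor, which hold GFP-marked cells together with heterozygous cells, stroma, vessels and leukocytes. The samples used here hold a single condition without any normal gland, so no level can be called raised or lowered against normal tissue, and the ages of the mice were not given in the sources used here. In bulk RNA, fewer cells of a type and less RNA per cell cannot be told apart.

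Ligands of the EGF family are made as membrane proteins and are released by sheddases, proteases of the ADAM family. A released ligand brings receptors together in pairs, whose kinase domains then phosphorylate each other and recruit adaptors that switch on the RAS-ERK and PI3K cascades. Areg, Tgfa, Hbegf, Ereg and Btc bind Egfr, and Hbegf, Ereg and Btc bind Erbb4 too, whereas the neuregulin Nrg1 binds Erbb3 and Erbb4. Erbb2 has no known ligand and acts as the preferred partner of the others, and Erbb3 has little kinase activity of its own. In the mammary gland, Areg is the ligand known for growth of the ducts downstream of estrogen, and the Erbb2 gene, HER2 in human, is amplified in a subtype of human breast cancer.

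The tumors were not alike in the cells that they held, which touches most values below. The median TPM over 6 epithelial junction genes (Cdh1, Epcam, Cldn3, Cldn4, Cldn7 and Esrp1) was 0.122 in tumor 2, 2.05 in tumor 8, 167 in tumor 9 and between 236 and 357 in the other 9 tumors. In tumor 2 the luminal keratins had a median of 0.326 TPM, the basal keratins were listed at 0, and the median of 5 B lymphocyte genes reached 609 TPM, compared with 40.3 TPM for tumor 9 and no more than 2.80 TPM elsewhere. Tumor 2 thus held almost no transcripts of these epithelial genes. In tumor 8 the luminal keratins had a median of 16.2 TPM, against 562 to 2635 TPM in the 10 tumors other than tumors 2 and 8. Tumor 8 still had 128 TPM of Krt8 and 87.9 TPM of Krt14, and its summed basal keratins, 90.3 TPM, were above the 61.9 TPM of tumor 9. Whether tumors 2 and 8 arose from mammary epithelium, as their label of mammary tumor has it, is not settled by these values. Values are given with and without tumor 2 where it decides them. The sum of TPM per tumor lay between 999770 and 999909. TPM keeps no read number, so the depth behind each value is unknown and no counting error can be given.

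Of the 10 genes, Hbegf and Tgfa alone reached 1 TPM in all 12 tumors, 2 of 10 where 25.2% of all 47593 genes did. In the 11 tumors other than tumor 2, the number was 6 (Egfr, Erbb2, Areg, Hbegf, Tgfa and Btc), where 27.0% of all genes did. With a mark of 2 TPM the numbers were 0 in all 12 tumors and 2 in the 11, beside 22.6% and 24.5% of all genes, and with 0.5 TPM they were 3 and 7, beside 27.6% and 29.6%. Of the receptors 1 was close to 0 throughout, and several ligands were high in some tumors and close to 0 in others.

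**Figure D1:**
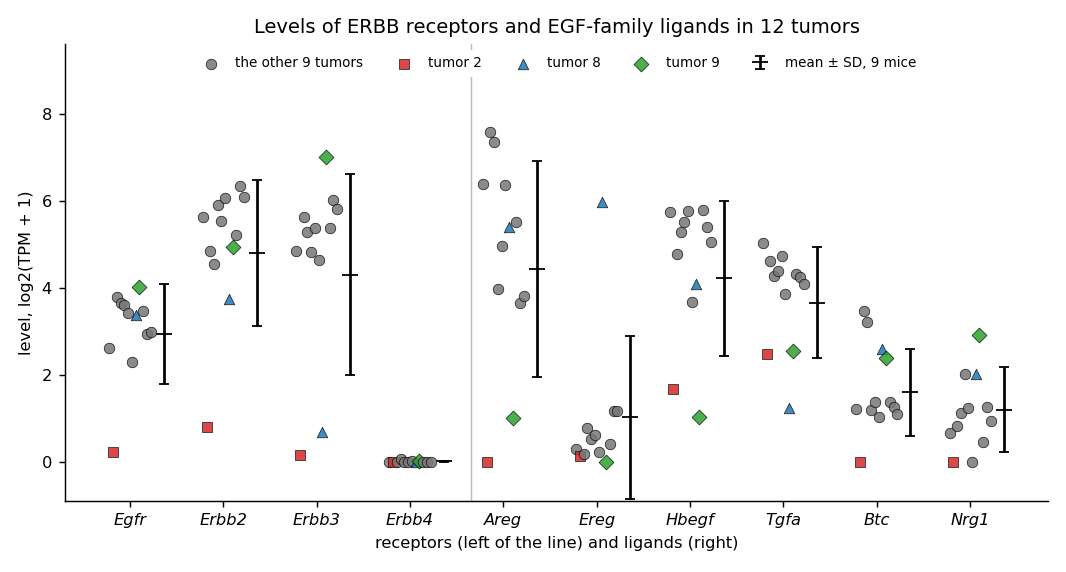
Levels of the 4 receptors and 6 ligands on the log2(TPM + 1) scale, one point per tumor, with the mean ± SD over 9 mice as a bar to the right of the points. Tumor 2 lay lowest for Egfr, Erbb2, Erbb3, Areg and Btc, tumor 8 was alone high for Ereg at 61.8 TPM, and Erbb4 was at or close to 0 in all 12 tumors.

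Among the receptors, Erbb2 and Erbb3 were high, Egfr was lower and Erbb4 was barely listed. These are levels of RNA relative to the other receptors and not of protein. By immunohistochemistry the study found the MADM tumors that it stained to be mostly negative for HER2. Erbb2 (ENSMUSG00000062312, chromosome 11 from 98412470 to 98437716, plus strand, GRCm38) had 38.6 ± 22.9 TPM (SD, n = 9 mice), with a lowest value of 0.732 TPM in tumor 2, a median of 40.7 TPM and a highest value of 80.3 TPM in tumor 11. Without tumor 2 the lowest value was the 12.3 TPM of tumor 8, so that Erbb2 was well above 1 TPM in all of the other 11 tumors and differed 6.52-fold between the lowest and the highest of them.

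Erbb3 (ENSMUSG00000018166, chromosome 10 from 128567523 to 128589652, minus strand) had nearly the same mean, 38.3 ± 38.1 TPM, with a far wider spread. It was at 0.109 TPM in tumor 2, at 0.592 TPM in tumor 8, between 23.7 and 63.7 TPM in 9 tumors and at 128 TPM in tumor 9. The lowest values of Erbb3 were thus in the 2 tumors with few epithelial transcripts, and the highest was in tumor 9, apart from the next tumor.

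Egfr (ENSMUSG00000020122, chromosome 11 from 16752203 to 16918158, plus strand) averaged 8.27 ± 4.58 TPM (SD, n = 9 mice). It was listed at 0.160 TPM in tumor 2, and the other tumors ran from 3.89 TPM (tumor 7) to 15.1 TPM (tumor 9). Tumor 8, with its low epithelial transcripts, had 9.38 TPM of Egfr, close to the median of 9.50 TPM. Among the 11 tumors other than tumor 2, Egfr differed 3.89-fold between the lowest and the highest, the narrowest range of the 3 receptors that were detected. This rank rested on tumor 8, since without it Erbb2 ran from 22.4 to 80.3 TPM, a narrower range than that of Egfr. Egfr and Erbb2 lie on chromosome 11, which in these mice also carries the MADM cassettes and both mutant alleles.

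Erbb4 (ENSMUSG00000062209, chromosome 1 from 68032186 to 69108059, minus strand), the receptor known for alveolar and lactational development, was listed at 0 in 9 tumors and at 0.0474, 0.0132 and 0.00951 TPM in tumors 4, 9 and 7. Without read numbers these values do not separate a silent gene from a few transcripts.

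The order of the receptors was tested within mice on the log2(TPM + 1) scale, with an exact sign-flip permutation test, two-sided, adjusted by Benjamini-Hochberg over 6 pairs. Egfr was below Erbb2 in 9 of 9 mice, by a difference of -1.87 ± 1.20 (exact permutation p = 0.00391, the smallest that 9 mice allow, adjusted p = 0.00586). Egfr, Erbb2 and Erbb3 each exceeded Erbb4 in 9 of 9 mice, by 2.92 ± 1.15, 4.79 ± 1.67 and 4.29 ± 2.31, with the same adjusted p in the exact permutation test. These are comparisons with a gene at or close to 0, so their size is set by the pseudocount and is no measure of a fold (5.81, 7.90 and 7.13 with a pseudocount of 0.1), and in tumor 2 they rest on values below 1 TPM against 0. Erbb2 and Erbb3 did not separate: the difference was 0.50 ± 1.43, with Erbb2 higher in 7 of 9 mice (p = 0.332 in this exact test, both before and after adjustment).

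Egfr was below Erbb3 by -1.37 ± 1.77 in 7 of 9 mice, a difference that did not pass the exact permutation test (p = 0.0625, adjusted p = 0.075). It was -1.88 without the mouse of tumor 8 (exact permutation test over 8 mice, adjusted p = 0.0188) and passed with no other mouse left out. The 4 pairs that passed did so with every mouse left out in turn, the mouse of tumor 2 included. With each tumor as a unit, Egfr minus Erbb3 was -1.61 and passed (adjusted p = 0.0105 in the exact permutation test). That run counts tumors of one mouse as independent, so its p is too small and adds no support. Over 9 mice Erbb2 was thus above Egfr, and Erbb3 was separated from neither Erbb2 nor Egfr. Each of these 3 receptors was above Erbb4, but any detected gene would be above a gene at or close to 0. The p of those pairs therefore says only that Erbb4 was barely listed.

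As shares of the summed TPM of the 4 receptors, Erbb2 led in 8 tumors (tumors 1, 2, 5, 6, 7, 8, 11 and 12) with 47.5% to 73.2%, and Erbb3 led in tumors 3, 4, 9 and 10 with 46.6% to 74.0%. Egfr made up 42.1% of receptor transcripts in tumor 8 and between 4.17% and 16.0% in the other tumors. The sum itself was 1.00 TPM in tumor 2, 22.3 TPM in tumor 8, 173 TPM in tumor 9 and between 71.9 and 151 TPM elsewhere. The larger share of Egfr in tumor 8 thus stood beside a low sum, in which Erbb3 took 2.66% and the level of Egfr itself was near the middle of its range.

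**Figure D2:**
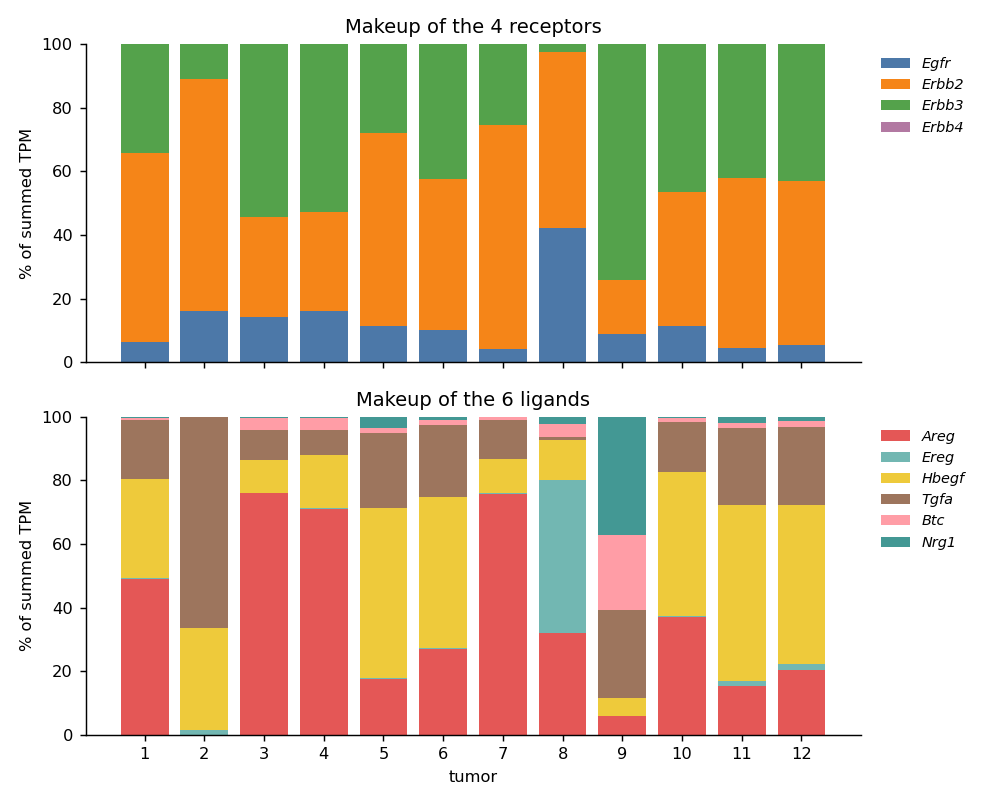
Makeup of the summed TPM of the 4 receptors (upper bars) and of the 6 ligands (lower bars) in each tumor, in percent. Erbb2 or Erbb3 led the receptors in every tumor, whereas Areg led the ligands in 4 tumors, Hbegf in 5, and Tgfa, Ereg and Nrg1 in tumors 2, 8 and 9.

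The genes of Areg, Ereg and Btc lie together on chromosome 5 with Epgn, which encodes the EGF-family ligand epigen. In the GENCODE annotation of GRCm38, Epgn spans 91027464 to 91035215, Ereg 91074622 to 91093646 and Areg 91139599 to 91148432, all on the plus strand, and Btc spans 91357261 to 91402994 on the minus strand. The gaps are 39.4 kb from Epgn to Ereg, 46.0 kb from Ereg to Areg and 209 kb from Areg to Btc, with no annotated protein-coding gene in any of them. RefSeq windows of 250 bases before the gene start in GRCm38.p6 were found for 6 of the 10 members, and those of Areg, Btc and Epgn are shown because Areg and its neighbours Btc and Epgn lie in one cluster and Areg was far higher than either. RefSeq starts Epgn 53 bases downstream of the GENCODE start used here, so its window is shown only as far as the GENCODE start, for 197 bases, whereas the starts of Areg and Btc are the same in both. Capitals mark matches, on either strand, to the letters of a cAMP response element (TGACGTCA), a GC box (GGGCGG) or a TATA box (TATAAA).
Areg, chr5:91139349-91139598, plus strand: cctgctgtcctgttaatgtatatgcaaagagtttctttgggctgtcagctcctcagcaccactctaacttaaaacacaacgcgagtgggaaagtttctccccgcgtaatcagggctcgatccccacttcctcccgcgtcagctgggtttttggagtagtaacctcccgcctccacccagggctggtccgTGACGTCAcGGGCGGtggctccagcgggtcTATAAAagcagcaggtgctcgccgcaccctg
Btc, chr5:91402995-91403244, minus strand: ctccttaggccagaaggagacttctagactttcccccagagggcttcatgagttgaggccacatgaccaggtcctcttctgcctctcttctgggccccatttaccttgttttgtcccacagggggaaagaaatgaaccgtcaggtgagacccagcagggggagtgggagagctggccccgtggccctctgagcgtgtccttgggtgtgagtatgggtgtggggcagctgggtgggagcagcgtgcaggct
Epgn, chr5:91027267-91027463, plus strand: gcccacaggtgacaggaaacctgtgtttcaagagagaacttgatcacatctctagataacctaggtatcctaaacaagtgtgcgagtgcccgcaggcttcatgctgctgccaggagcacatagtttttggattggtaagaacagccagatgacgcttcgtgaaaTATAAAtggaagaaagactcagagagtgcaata

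The Areg window holds the cAMP response element from 61 to 54 bases before the start, a GC box from 52 to 47 and a TATA box from 31 to 26, and these 3 matches do not overlap. Of 32851 RefSeq windows of the same length, 1.55% hold the cAMP response element, 32.7% a GC box and 12.4% a TATA box. The Epgn stretch holds a TATA box match from 33 to 28 bases before the GENCODE start (86 to 81 before that of RefSeq), and the Btc window holds none of these letters. GC content of the printed bases was 57.2%, 59.6% and 45.7% for Areg, Btc and Epgn, and they hold 15, 4 and 4 CpG dinucleotides. A match describes letters and not a bound site.

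Areg (ENSMUSG00000029378), which encodes amphiregulin, had the highest mean of the ligands, 50.1 ± 56.3 TPM (SD, n = 9 mice), and an SD above its mean. It was at 191 and 162 TPM in tumors 3 and 4, at 82.7 TPM in tumor 1, 81.7 TPM in tumor 7, 44.7 TPM in tumor 10, 41.0 TPM in tumor 8 and 30.2 TPM in tumor 6. It was at 14.6, 13.1 and 11.4 TPM in tumors 5, 12 and 11, at 1.02 TPM in tumor 9 and listed at 0 in tumor 2. Its highest values were in the 2 tumors of one mouse, and among the 11 tumors other than tumor 2 it differed 188-fold. In tumor 9 the median of the epithelial junction genes was 167 TPM, the third lowest of 12, and their summed level was 2100 TPM. Tumor 8, with a median of 2.05 TPM, had the 41.0 TPM of Areg given above. Over the 8 mice without that of tumor 2, Areg with these genes had r = 0.015 (exact permutation p = 0.965, rho = 0.19). The part of epithelial content in the low Areg of tumor 9 was not tested.

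Hbegf (ENSMUSG00000024486), which encodes the heparin-binding ligand, had 28.4 ± 21.1 TPM, with 53.4, 54.4 and 52.6 TPM in tumors 6, 10 and 1 and 44.5, 41.0, 37.9, 32.0 and 26.5 TPM in tumors 5, 11, 4, 12 and 3. It was lower in tumors 8, 7, 2 and 9, at 16.0, 11.7, 2.18 and 1.04 TPM. As with Areg, the lowest values were in tumors 9 and 2.

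Tgfa (ENSMUSG00000029999, chromosome 6 from 86195223 to 86275719, plus strand), which encodes transforming growth factor alpha, had 15.5 ± 10.3 TPM. It was the steadiest of these 3 ligands: 9 tumors ran from 13.4 TPM (tumor 7) to 31.4 TPM (tumor 1). The exceptions were tumors 9, 2 and 8, at 4.84, 4.55 and 1.36 TPM, the same 3 tumors whose epithelial junction genes had the lowest median. In tumor 9 this held for the median and not for the summed level. That sum was 2100 TPM, within the 1635 to 2509 TPM of the other 9 tumors, whereas tumors 2 and 8 had 1.00 and 12.3 TPM.

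The ligands of the cluster other than Areg were lower. Btc, betacellulin (ENSMUSG00000082361), had 2.77 ± 2.88 TPM. It was listed at 0 in tumor 2, lay between 1.04 and 1.59 TPM in 7 tumors, and was at 10.1, 8.23, 5.05 and 4.18 TPM in tumors 3, 4, 8 and 9. The mouse of tumors 3 and 4 thus held the highest values of Btc as well as of Areg, but over the 8 mice without that of tumor 2 no relation between these neighbouring genes was detectable (r = 0.083, exact permutation p = 0.844, rho = 0.14, exact permutation p = 0.752), nor without the mice of tumors 3 and 9 (r = -0.0057, exact permutation p = 0.986). Tumors 3 and 4 also had the highest skeletal muscle genes, with medians of 48.0 and 35.9 TPM against at most 5.22 TPM elsewhere, and tumor 4 the highest fibroblast and adipocyte genes, at 442 and 32.7 TPM. Btc with the fibroblast genes had r = 0.72 over 8 mice (exact permutation p = 0.0479, adjusted p = 0.281, rho = 0.52), and 0.69 without the mice of tumors 7 and 8 (exact permutation p = 0.158). Areg with the same genes had r = 0.16 (exact permutation p = 0.704, adjusted p = 0.866, rho = 0.24), and 0.61 without the mice of tumors 7 and 8 (exact permutation p = 0.207). The part of these cells in the values of Btc and Areg was not tested.

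Ereg, epiregulin (ENSMUSG00000029377), was listed at 0 in tumor 9, at 0.706 TPM or less in 8 other tumors and at 1.23 and 1.24 TPM in tumors 11 and 12, while tumor 8 had 61.8 TPM. Tumor 8 alone sets the mean, 7.18 ± 20.5 TPM, for a gene whose median was 0.377 TPM. In the same tumor Epgn was at 11.6 TPM, its highest value, with 4.95 TPM in tumor 4 next and 0 in tumor 2. Areg in tumor 8, at 41.0 TPM, was near the middle of its range, and Btc, at 5.05 TPM, was the third highest of 12. Tumor 8 was the highest of 12 for 11.8% of the 16779 genes with a mean of 1 TPM or more, and of the members with such a mean for Ereg alone, which reaches it only through tumor 8, so that nothing is read from this count.

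**Figure D3:**
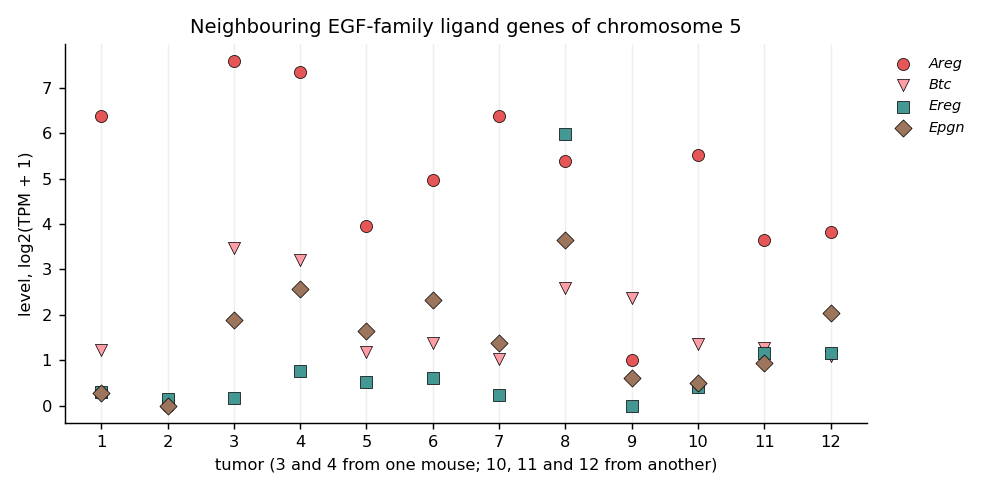
Levels of the 4 neighbouring ligand genes of chromosome 5 in each tumor on the log2(TPM + 1) scale. Ereg and Epgn were highest in tumor 8 (61.8 and 11.6 TPM), Areg and Btc in tumor 3 (191 and 10.1 TPM), and in tumor 2 Areg, Btc and Epgn were listed at 0.

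Nrg1 (ENSMUSG00000062991, chromosome 8 from 31814551 to 32884029, minus strand), the member of this set that binds Erbb3 and Erbb4, had 1.83 ± 2.10 TPM. It was listed at 0 in tumors 2 and 7, lay between 0.363 and 1.39 TPM in 7 tumors, and was at 3.05, 3.07 and 6.55 TPM in tumors 5, 8 and 9. Its highest value was in the tumor that also had the highest Erbb3, although over 8 mice no relation of Nrg1 with Erbb3 was detectable (r = 0.013, exact permutation p = 0.972, rho = 0.17, exact permutation p = 0.703). Without the mice of tumors 7 and 9 r was -0.65 (exact permutation p = 0.103). Nrg1 has 18 annotated transcripts, and 1 value per gene does not say which of its isoforms were present.

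On the log2(TPM + 1) scale the mean levels were 4.43 for Areg, 4.21 for Hbegf, 3.65 for Tgfa, 1.59 for Btc, 1.19 for Nrg1 and 1.02 for Ereg. The pairs are described here by the gap between the upper 3 and the lower 3 of this order, which was read from the same means and is no test of a grouping. Of the 9 pairs that cross the gap, with differences between 2.06 and 3.41, 8 passed the exact sign-flip permutation test after adjustment over 15 pairs. Tgfa against Ereg was the exception (Ereg minus Tgfa -2.64 ± 2.87, exact permutation p = 0.0391, adjusted p = 0.0651). It passed with a pseudocount of 0.1 (-4.16, adjusted p = 0.0391 in the exact permutation test) and with each tumor as a unit (-2.86, adjusted p = 0.0106 in the same test). All 9 pairs across the gap passed in those runs, the latter of which counts tumors of one mouse as independent.

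Areg exceeded Ereg by 3.41 ± 2.80, with Areg higher in 7 of 9 mice (exact permutation p = 0.0156, adjusted p = 0.0335), and Hbegf exceeded Btc by 2.62 ± 1.96 in 8 of 9 mice (exact permutation p = 0.00781, adjusted p = 0.0335). None of the 6 pairs within the upper or the lower 3 passed over 9 mice, with differences between 0.17 and 0.78. Without the mouse of tumor 8, Ereg minus Btc was -1.07 and passed (exact permutation test over 8 mice, adjusted p = 0.0335), against -0.58 over 9 mice. Whether this pair passed thus depended on tumor 8, while its direction did not. Ereg minus Nrg1 was -0.69 in that run and turned to 0.17 without the mouse of tumor 9. Areg minus Hbegf was 0.22 ± 1.66 with Areg higher in 4 of 9 mice (exact permutation p = 0.691, adjusted p = 0.741), and Btc minus Nrg1 was 0.40 ± 0.93 (exact permutation p = 0.227, adjusted p = 0.309).

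The number of ligand pairs that passed depended on the mice. It was 5 without the mouse of tumor 2 or of tumor 9, 10 without that of tumor 8, and 0 without that of tumor 1, 3, 5, 6, 7 or 10. No pair across the gap changed direction in these runs, and its unadjusted p stayed at or below 0.0703, with adjusted values between 0.0335 and 0.117 in the same exact permutation tests.

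The leading ligand changed from tumor to tumor. Areg had the largest share of the summed TPM of the 6 ligands in tumors 1, 3, 4 and 7, with 49.0% to 75.8%, and Hbegf in tumors 5, 6, 10, 11 and 12, with 45.2% to 55.1%. Tgfa led in tumor 2 with 66.6%, Ereg in tumor 8 with 48.2% and Nrg1 in tumor 9 with 37.2%. The sum came to 6.83 TPM in tumor 2 and 17.6 TPM in tumor 9, and to 64.3 to 252 TPM elsewhere. In tumors 2 and 9 the lead thus came at a low total, while in tumor 8 the total of 128 TPM was exceeded by those of tumors 1, 3 and 4 only.

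Of the other ligands of the family, Epgn was at a level like that of Btc, with 2.82 ± 3.60 TPM (SD, n = 9 mice), and its 11.6 TPM in tumor 8 was above every value of Btc and of Nrg1. None of the 5 (Egf, Epgn, Nrg2, Nrg3 and Nrg4) reached 1 TPM in all 12 tumors, nor in the 11 tumors other than tumor 2. Egf, which gives the family its name, did not exceed 1.27 TPM, Nrg3 was listed at 0 in every tumor, and Nrg2 reached 8.47 TPM in tumor 5. Nrg4, an Erbb4 ligand, was low and even, at 1.89 ± 0.69 TPM (SD, n = 9 mice), with a range from 0.988 to 2.95 TPM.

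Tumors 2, 8 and 9 each stood at the end of the range for different members. Tumor 2 was the lowest of 12 for 5 of the 9 members with a mean of 1 TPM or more (Egfr, Erbb2, Erbb3, Areg and Btc), where it was the lowest for 28.9% of the 16779 genes with such a mean. It was the highest for 0 of 9, against 20.4% of those genes. One of the 9 is Ereg, which is counted only because of tumor 8. Tumor 8 was the lowest for Tgfa alone, against 8.09%.

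Tumor 9 was the highest for 3 members (Egfr, Erbb3 and Nrg1), where it was the highest for 14.1% of genes. Of the members other than Ereg it was the lowest for Hbegf alone, where it was the lowest for 20.6% of genes. Ereg was also lowest in tumor 9, but it has such a mean only through its high value in another tumor. Nothing is therefore read from that rank of Ereg. Tumor 9 thus combined the highest levels of the 2 receptors Egfr and Erbb3 with the second lowest sum of ligands. It also held B and T lymphocyte genes with medians of 40.3 and 14.2 TPM, and the part of these cells in its values was not tested.

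Many of the members varied widely between mice. The SD over 9 mice was above 1 on the log2(TPM + 1) scale for 6 of 8 members, all but Btc and Nrg1 by this cutoff, where it was so for 22.1% of genes with a mean of 1 TPM or more. Ereg was left out of these counts, because both its mean above 1 TPM and its spread come from tumor 8. Without the mouse of tumor 2 it was above 1 for 4 of 8 (Erbb3, Areg, Hbegf and Tgfa), against 14.8% of genes, so that the spread of Egfr and Erbb2 rested on tumor 2. Without the mice of tumors 2 and 8, a choice made after seeing the data, it was above 1 for 2 of 8 (Areg and Hbegf), against 12.3% of genes. The SD of Egfr went from 1.15 to 0.57 and that of Erbb2 from 1.67 to 0.79 without it, whereas that of Areg went from 2.49 to 1.98 and that of Tgfa was 1.27 and 1.28.

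Tumors of one mouse were closer to each other than tumors of different mice for all 8 members other than Ereg with a mean of 1 TPM or more. The same held for 91.3% of all genes with such a mean. Ereg was left out here too, because its mean above 1 TPM and its spread come from tumor 8. For Areg the mean absolute difference was 1.00 on the log2(TPM + 1) scale over the 4 pairs of one mouse and 2.80 over the 62 other pairs. For Tgfa it was 0.21 against 1.27, for Btc 0.20 against 1.19 and for Erbb3 0.41 against 2.19. The 4 pairs come from 2 mice. Areg was the member with the largest difference within a mouse, with 44.7 TPM in tumor 10 and 11.4 and 13.1 TPM in tumors 11 and 12.

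Relations between members were examined over the 8 mice other than that of tumor 2, since tumor 2 lacked the epithelial genes. Of 10 relations, between receptors, between a ligand and its receptor and between neighbouring genes, none passed after Benjamini-Hochberg adjustment in the exact permutation test of the pairings, and 1 had an unadjusted p under 0.05. Pearson's r lay between -0.54 for Egfr with Areg (exact permutation p = 0.164, adjusted p = 0.546, rho = -0.40, exact permutation p = 0.327) and 0.84 for Erbb2 with its neighbour Grb7. Without the mice of tumors 3 and 9, Egfr with Areg had r = -0.84 (exact permutation p = 0.0528). No relation was detectable of Egfr with Tgfa (r = -0.29, exact permutation p = 0.497, rho = -0.095), which had r = 0.22 without the mice of tumors 8 and 9. Egfr with Hbegf had r = -0.31 (exact permutation p = 0.463, rho = -0.17), and -0.33 without the mice of tumors 7 and 9. The neighbours Areg and Ereg had r = 0.12 (exact permutation p = 0.735, rho = -0.024), and -0.0097 without the mice of tumors 3 and 9. Egfr with Erbb3 had r = 0.22 (exact permutation p = 0.599, rho = 0.52), and 0.41 without the mice of tumors 1 and 7. Egfr with Erbb2 had r = -0.48 (exact permutation p = 0.229, rho = -0.52), and -0.19 without the same mice.

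Erbb3 and Erbb2, partners in signalling, had r = 0.57 (exact permutation p = 0.139, adjusted p = 0.546), while rho was -0.14 (exact permutation p = 0.752). The sign rested on tumor 8: without its mouse r was -0.62, and without the 2 mice farthest from the median of Erbb2 (those of tumors 3 and 8) it was -0.85 (exact permutation p = 0.0417). Neither sign can be taken from these mice.

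Grb7, an adaptor that binds Erbb2 and is often gained with it in human cancer, lies 8.68 kb from Erbb2 with Mien1 between them. It was at 0.245 TPM in tumor 8, 3.64 TPM in tumor 2 and 31.6 to 75.9 TPM elsewhere. Its relation with Erbb2 had an exact permutation p of 0.0102 and an adjusted p of 0.102 (rho = 0.62, exact permutation p = 0.115), and without the mice of tumors 8 and 9, the farthest from the median of Grb7, r was 0.69 (exact permutation p = 0.157). Of the 11 listed genes around Erbb2, 5 were at 1 TPM or more in all 12 tumors (Med1, Cdk12, Stard3, Pgap3 and Mien1), where 25.2% of all genes were. The neighbours were not alike in tumor 2, where Erbb2 was lowest. Stard3 was at its lowest there with 48.0 TPM, Ppp1r1b was at 0.108 TPM and Pgap3 at 11.3 TPM, beside medians of 66.4, 7.39 and 17.8 TPM. Mien1, Med1 and Cdk12 had 105, 27.2 and 21.0 TPM, beside medians of 103, 24.9 and 22.4 TPM, and Ikzf3, a lymphocyte gene, was at its highest with 230 TPM. In tumor 8, 4 of the 9 neighbours with a mean of 1 TPM or more were at their lowest (Mien1, Pgap3, Ppp1r1b and Grb7), as 8.09% of such genes were. Neurod2 and Pnmt were listed at 0 throughout.

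Each member was also set against the median log2(TPM + 1) of the epithelial junction, fibroblast and macrophage genes, 30 relations over 8 mice, of which 2 passed after adjustment and 5 had an unadjusted p under 0.05. Both that passed were of Tgfa. With the macrophage genes (Adgre1, Csf1r, Cd68, C1qa, C1qb and Mrc1) Tgfa had r = -0.97 (exact permutation p = 7.44e-05, adjusted p = 0.00223) and rho = -0.98 (exact permutation p = 0.000397, adjusted p = 0.0119). Without the mice of tumors 8 and 9, the 2 farthest from the median, r was -0.88 (exact permutation p = 0.00694). Hbegf went the same way with the macrophage genes but did not pass (r = -0.62, exact permutation p = 0.0931, adjusted p = 0.32). Its rho was -0.88 (exact permutation p = 0.00724, adjusted p = 0.109), and r was -0.96 without the same 2 mice (exact permutation p = 0.0181). With the epithelial junction genes Hbegf had r = 0.25 (exact permutation p = 0.465) and rho = 0.71 (exact permutation p = 0.0576).

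The relation of Tgfa with the macrophage genes held with each of the 8 mice left out in turn, with r between -0.99 and -0.91. It did not pass over all 9 mice (r = -0.19, exact permutation p = 0.608, adjusted p = 0.702), where tumor 2 was low in both, at 4.55 TPM of Tgfa and a macrophage median of 30.5 TPM. All 6 macrophage genes were found, and their summed level ran from 266 TPM in tumor 2 to 2513 TPM in tumor 8.

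With the epithelial junction genes Tgfa had r = 0.88 (exact permutation p = 0.00126, adjusted p = 0.019) and rho = 0.83 (exact permutation p = 0.0154, adjusted p = 0.154). Without both of the mice farthest from the median, those of tumors 8 and 9, r was 0.66 and the relation did not pass (exact permutation p = 0.149). Without the mouse of tumor 7, 8 or 9 alone r was no smaller, between 0.89 and 0.97, although the adjusted p was then between 0.0967 and 0.152 in the same exact permutation test. TPM is a share of all transcripts of a tumor, so a level in one kind of cell and a share of another kind of cell are tied, and their parts in these relations cannot be told apart.

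**Figure D4:**
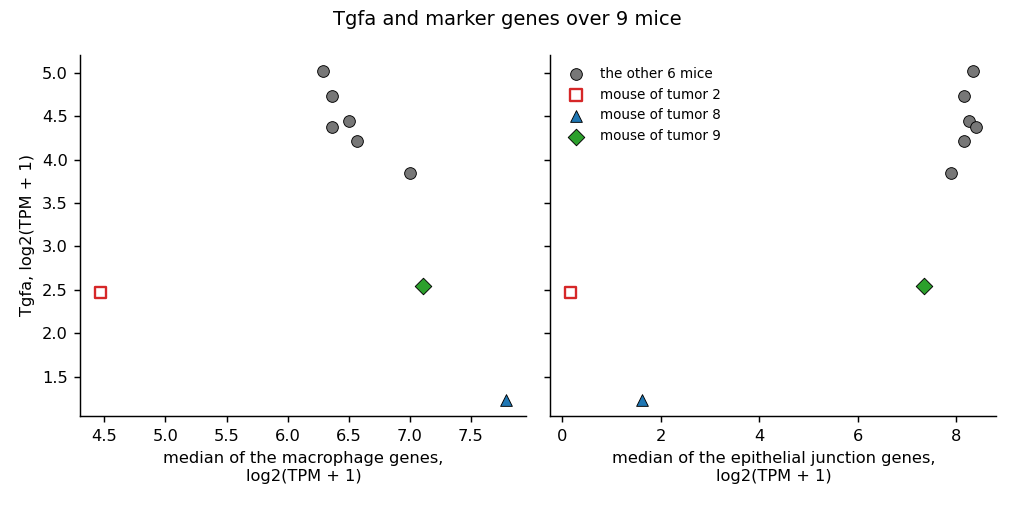
Tgfa against the median of 6 macrophage genes (left) and of 6 epithelial junction genes (right), one point per mouse, all on the log2(TPM + 1) scale. Over the 8 mice other than that of tumor 2 (open square) Tgfa was lower where the macrophage genes were higher (r = -0.97), and higher where the epithelial junction genes were higher (r = 0.88, and 0.66 without the mice of tumors 8 and 9).

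By likeness of pattern over the same 8 mice, and among 10765 genes with a mean of 10 TPM or more, the closest genes were Mrpl21 (r = 0.99) and Fam179a (r = 0.98) for Erbb2. For Erbb3 they were Cblc and Mia (both r = 0.98), for Areg Asap2 and Car12 (both r = 0.98), for Hbegf Myl12a and Ptk7 (both r = 0.98), and for Tgfa Ncmap (r = 0.98) and Vtcn1 (r = 0.97). These are descriptions with no test, since between 63 and 210 genes per member had r above 0.9 over so few mice.

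The genes that release ligands and pass the signal on were listed in nearly every tumor. Of a list of 5, the sheddases Adam10, Adam12 and Adam17 and the iRhom proteins Rhbdf1 and Rhbdf2 that mature Adam17, 4 were at 1 TPM or more in all 12 tumors, all but Adam12, where 25.2% of all genes were. Adam17, the main sheddase of Areg and Tgfa, had 47.3 ± 11.2 TPM (SD, n = 9 mice), and Adam10, which cleaves Btc, had 82.5 ± 22.4 TPM. Rhbdf1 and Rhbdf2 had 72.1 ± 26.1 and 53.0 ± 23.4 TPM, with Rhbdf2 at 4.35 TPM in tumor 2 and 30.5 to 120 TPM elsewhere. All 5 adaptors (Grb2, Shc1, Sos1, Gab1 and Plcg1) passed the same mark beside the same 25.2%, Grb2 with 101 ± 35.5 TPM. The SD of Adam17, 0.38 on the log2(TPM + 1) scale, was below that of each member other than Erbb4.

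Of 6 inhibitors of the receptors, 5 were at 1 TPM or more in all 12 tumors (25.2% of all genes were), Lrig3 being the exception. Errfi1, whose product binds and blocks the kinase domains of the receptors and which is itself induced by their signal, ran from 15.8 TPM in tumor 2 to 364 TPM in tumor 12. Its next highest values were 317 TPM in tumor 11, 251 TPM in tumor 6 and 233 TPM in tumor 5. Those 4 tumors were led by Hbegf among the ligands, and the fifth tumor that Hbegf led, tumor 10, had 137 TPM of Errfi1, a description that was not tested. Tumors 10, 11 and 12 come from one mouse. The level of Hbegf did not follow this order, with 32.0 TPM in tumor 12 and 54.4 TPM in tumor 10. Tumor 1 had 52.6 TPM of Hbegf and 115 TPM of Errfi1.

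Genes that the ERK cascade induces were examined as a further readout of the pathway, with no claim that these receptors alone drive them. Of 15 such genes, 13 were at 1 TPM or more in all 12 tumors, all but Spry4 and Fosl1, where 25.2% of all genes were. Tumor 9 was the lowest of 12 for 9 of the 15 (Dusp6, Spry1, Spry2, Spry4, Spred1, Spred2, Etv4, Etv5 and Fosl1), where it was the lowest for 20.6% of all genes with a mean of 1 TPM or more. The median over the list was 7.17 TPM in tumor 9, 12.1 TPM in tumor 2, 30.4 TPM in tumor 8 and 37.6 to 61.2 TPM in the remaining 9 tumors.

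Dusp6, a phosphatase that switches ERK off, was at 35.2 TPM in tumor 9 and between 88.1 and 219 TPM elsewhere, 123 ± 48.0 TPM over 9 mice. Etv4, a transcription factor downstream of ERK, was at 1.16 TPM in tumor 9, 12.1 TPM in tumor 2 and 50.0 TPM or more in the others. Not all of the list was low in tumor 9, since Dusp4 was at 201 TPM there, its highest value, and Phlda1 was at 214 TPM, below tumors 11 and 12 only. Tumor 9 and tumor 2 were the 2 tumors with the lowest sum of ligands, 17.6 and 6.83 TPM. Tumor 12 came next, at 64.3 TPM, but had the highest median of the list, 61.2 TPM. Tumor 8 had 128 TPM of ligands and a low median of the list, 30.4 TPM. Tumors 2 and 9 also had the highest B lymphocyte genes, with medians of 609 and 40.3 TPM. Whether the ligands or these cells had a part in the low list was not tested.

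**Figure D5:**
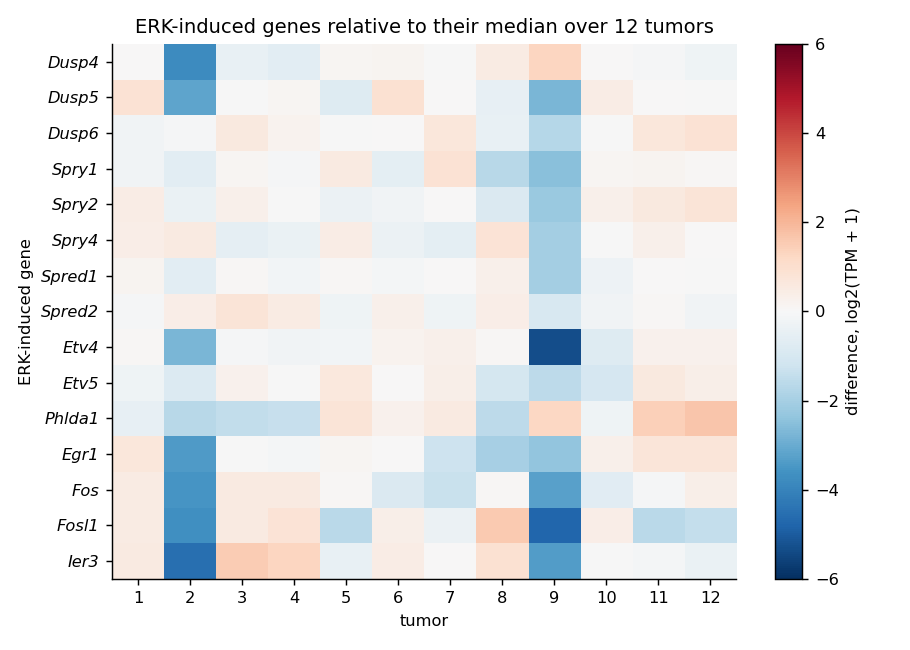
Levels of 15 ERK-induced genes in each tumor as differences from the median of the gene over 12 tumors, on the log2(TPM + 1) scale. Tumor 9 was the lowest of 12 for 9 of the genes and tumor 2 for 6, while Dusp4 was highest in tumor 9 at 201 TPM. Of all genes with a mean of 1 TPM or more, tumor 9 was the lowest for 20.6% and tumor 2 for 28.9%.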

How the data were processed

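The authors trimmed adapters with fastq-mcf, aligned paired-end reads of stranded poly(A) libraries to the GRCm38 transcriptome with HISAT2, and deposited TPM from StringTie 2.1.6, giving each Ensembl gene 1 value in each tumor, without pooling. How transcripts were summed per gene is not given in the sources used here. All 12 columns of values were matched to a tumor by the animal and tumor suffix of its labels.

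From the TPM, log2(TPM + 1) was computed and tumors of one mouse were averaged, giving 9 mice. Pairs of members were compared by exact sign-flip permutation tests over 9 mice, and relations by exactly permuting which values are paired across 8 mice (all but that of tumor 2), each two-sided. For relations over single tumors, 100000 resamples were drawn. Benjamini-Hochberg adjustment covered 6 receptor pairs, 15 ligand pairs, 10 member relations and 30 marker relations, at a threshold of 0.05. Samples labelled as separate animals are the replicates, and no label gives a batch.

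The alternatives were a pseudocount of 0.1, TPM rescaled without mitochondrial genes or to the 75th percentile, each tumor as a unit, tumor 2 in or out, the mean of a marker list, marks of 2 and 0.5 TPM, and leaving out each mouse. Members and lists were chosen with earlier results of these data known. The named genes are the members, the genes of the pathway and marker lists and, for each member with a mean of 10 TPM or more, the 2 genes with the highest r. Positions came from GENCODE for GRCm38, which placed 47137 of 47593 identifiers, and promoter windows from RefSeq GRCm38.p6. The other marker lists were myoepithelial (median of 0.416 to 9.05 TPM over 12 tumors), endothelial (2.57 to 31.8 TPM), skeletal muscle (0 to 48.0 TPM), Schwann (0.0521 to 7.65 TPM), skin (0 to 0.626 TPM), adipocyte (0 to 32.7 TPM), basal keratin (0 to 213 TPM) and fibroblast genes (7.08 to 442 TPM). Values were computed with scipy 1.17.1, pandas 2.3.3 and numpy 2.4.6 under Python 3.11.15, and drawn with matplotlib 3.10.9.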

Additional observations from a re-analysis of the deposited data

Results flagged for a closer look

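Each of the 10 members was examined, on the log2(TPM + 1) scale over 9 mice, with Dixon's ratio, which asks whether the highest or lowest mouse is far from its nearest neighbour. Chance alone picks out about 1 in 20 groups, and 3 genes were picked out. The mouse of tumor 2 was far below the others in Egfr, at 0.21 with the nearest mouse at 2.29, and in Erbb2, at 0.79 with the nearest mouse at 3.74. The mouse of tumor 8 was far above the others in Ereg, at 5.97 with the nearest mouse at 0.91. Tumor 2 was also the tumor with the lowest epithelial junction genes (a median of 0.122 TPM) and the highest B lymphocyte genes (609 TPM), and tumor 8 had the second lowest epithelial junction genes (2.05 TPM) and the highest macrophage and endothelial genes (220 and 31.8 TPM). Its fibroblast genes had the highest summed level of 12, 3115 TPM, with a median of 333 TPM below the 442 TPM of tumor 4. The part of these cells in the values was not tested.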

How the results depend on the processing

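No paired analysis was possible because the study has no groups whose samples could be paired, and the tests of receptors and ligands compare genes within each mouse. Rescaling TPM without mitochondrial genes or to the 75th percentile left the number of passing tests in each of the 4 families as it was. Of the receptor pairs, 4 passed (4 to 5 with a mouse left out, 5 with each tumor as a unit). Of the ligand pairs, 8 passed, 5 without the mouse of tumor 2, and 0 to 10 with each mouse left out. The direction of Areg minus Hbegf turned to -0.092 with a pseudocount of 0.1 and ran from -0.092 to 0.46 with a mouse left out, and Ereg minus Nrg1 from -0.69 to 0.17. None of the member relations passed, and 1 did with each tumor as a unit. Over all 9 mice the sign turned for Erbb2 with Egfr (r = 0.70), Egfr with Areg (0.40), Egfr with Tgfa (0.18) and Egfr with Hbegf (0.35). Erbb3 with Nrg1 turned to -0.053 with a pseudocount of 0.1 and to -0.031 with each tumor as a unit. With a mouse left out, r ran from -0.48 to 0.54 for Btc with Areg, from -0.50 to 0.73 for Erbb3 with Nrg1, from -0.62 to 0.77 for Erbb3 with Erbb2, from -0.050 to 0.70 for Erbb3 with Egfr, from -0.12 to 0.25 for Ereg with Areg and from -0.65 to 0.37 for Egfr with Hbegf. Of the marker relations 2 passed, 0 over all 9 mice and 1 to 2 with a mouse left out. The number of members at 1 TPM in all 12 tumors was 2, with 0 at 2 TPM, 3 at 0.5 TPM and 6 in the 11 tumors other than tumor 2, a count chosen after seeing the data. The members with an SD above 1 over mice numbered 6 of 8, 4 without the mouse of tumor 2 and 2 without the mice of tumors 2 and 8, also chosen after seeing the data. The cause was not tested. Depth is unknown, so values under 1 TPM have no known counting error.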
